A study of Mus musculus with 23 samples.

Results

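Transcripts of 9 transcription factor genes that set or maintain macrophage and microglial identity were followed in mouse brain: Spi1, Irf8, Sall1, Runx1, Cebpa, Irf5, Ikzf1, Mef2c and Maf. They were chosen by symbol out of 22310 named genes in the count table, and all 9 passed the filter on low counts that left 16209 genes for testing. Of the 9, 7 were taken as myeloid, and Mef2c and Maf as factors that neurons also express. Bulk RNA-seq was available for 23 brain libraries from wild-type (WT) mice and from mice with Csf1R-G793A, a changed form of the CSF1 receptor, on which microglia and other macrophages depend. Each genotype was fed control chow, chow with PLX3397 at 290 mg/kg, or chow with PLX5622 at 1200 mg/kg, for 14 days. Both compounds inhibit the CSF1 receptor kinase. WT controls had 3 libraries, and WT PLX3397, WT PLX5622, G793A control, G793A PLX3397 and G793A PLX5622 had 4 each. The labels give neither the animals' age nor the brain region, and they do not say that each library came from its own mouse. The p-values therefore measure the spread between these libraries.

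PU.1, the ETS factor encoded by Spi1, opens macrophage enhancers and works with IRF8, which binds beside it at composite ETS-IRF sites. RUNX1, C/EBP alpha and Ikaros (Ikzf1) act earlier and more widely in blood cell development, and IRF5 passes on signals from innate immune receptors. SALL1 is a zinc-finger factor that holds the microglial programme in place downstream of TGF-beta. MEF2C and c-MAF are used by microglia or other macrophages and also by cortical neurons, MEF2C mostly in excitatory cells and c-MAF mostly in interneurons.

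Promoter windows were available from RefSeq (GRCm38.p6) for 7 of the 9 genes, 14 windows in all, each trimmed to the 250 bases before an annotated start. Spi1 and Maf had none. The windows below are examples from Irf8, Ikzf1 and Runx1, which fell together in WT brain, and from Mef2c, which neurons share and which did not. Irf5 also fell, and its window, with no PU.1 core, is not shown. For Runx1 the window with the core is shown, and its other window held none. Capitals mark the PU.1 core letters GAGGAA or their reverse complement, and a window all in lower case holds none.
Irf8, chr8:120736108-120736357, plus strand: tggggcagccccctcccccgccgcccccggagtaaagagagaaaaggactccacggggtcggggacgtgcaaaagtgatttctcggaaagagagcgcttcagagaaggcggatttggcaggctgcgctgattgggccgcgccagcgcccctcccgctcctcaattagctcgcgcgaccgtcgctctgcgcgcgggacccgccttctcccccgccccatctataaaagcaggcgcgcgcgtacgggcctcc
Ikzf1, chr11:11685675-11685924, plus strand: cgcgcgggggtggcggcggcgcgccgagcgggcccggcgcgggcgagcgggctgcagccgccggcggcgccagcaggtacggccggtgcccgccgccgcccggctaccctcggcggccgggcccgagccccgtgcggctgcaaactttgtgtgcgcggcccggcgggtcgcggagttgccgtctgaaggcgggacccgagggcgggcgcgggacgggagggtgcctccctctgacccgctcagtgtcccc
Runx1, chr16:92697330-92697579, minus strand: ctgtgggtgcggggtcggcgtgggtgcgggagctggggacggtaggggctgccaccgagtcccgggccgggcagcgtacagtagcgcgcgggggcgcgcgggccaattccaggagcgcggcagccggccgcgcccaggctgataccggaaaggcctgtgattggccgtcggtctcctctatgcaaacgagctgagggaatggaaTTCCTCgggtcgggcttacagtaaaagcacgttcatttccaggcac
Mef2c, chr13:83503784-83504033, plus strand: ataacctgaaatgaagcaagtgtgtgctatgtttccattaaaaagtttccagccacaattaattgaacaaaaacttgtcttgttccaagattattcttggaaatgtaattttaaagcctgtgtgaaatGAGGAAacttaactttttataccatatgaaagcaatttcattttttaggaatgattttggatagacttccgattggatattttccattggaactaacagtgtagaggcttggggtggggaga
The core GAGGAA was searched on both strands and occurred in 23.3% of all 32851 windows of this length. Among the 14 windows of these genes it occurred in 3, which are the Runx1 and Mef2c windows above and a second Mef2c window. None of the 14 held the ETS-IRF composite, searched as GGAA and GAAA 2 bases apart (2.3% of all windows), or the interferon response element, searched as GAAA repeated after 2 bases (2.98%). Also absent were the RUNX letters TGTGGT (14% of all windows), the C/EBP letters TTGC and AA 2 bases apart (9.56%), the MEF2 letters CTA and TAG 4 bases apart (3.2%) and the MAF letters TGCTGAC (3.81%). The interferon and composite searches can overlap the same bases. Members with the PU.1 core thus include one that fell and one that did not pass the test, and the window sequences were not related to expression by any test.

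Depth was 26.3 M to 48.2 M (mega-counts) per library. Neuronal transcripts marked every library as brain, with Snap25, Syt1, Rbfox3 and Stmn2 summing to between 4492 and 5593 CPM (counts-per-million). Csf1r, the gene of the inhibitors' target, stood at 93.7 ± 1.23 CPM (SD, n = 3) in WT controls. It was 23.3 ± 5.12 CPM in WT PLX3397 and 12.2 ± 4.56 CPM in WT PLX5622 (n = 4 each). In G793A brains it was 81.4 ± 4.69 CPM on control chow, 74.4 ± 4.24 CPM with PLX3397 and 71.6 ± 8.59 CPM with PLX5622 (n = 4 each). The summed level of 12 microglial genes, which include P2ry12 and Tmem119, was 366 to 417 CPM in WT controls, 80.8 to 119 CPM in WT PLX3397 and 42.6 to 92.2 CPM in WT PLX5622. In a whole-tissue sample, fewer cells of a type and less RNA per cell cannot be told apart, and that holds for every value below. Leaving out 2 libraries with cerebellar transcripts (WT PLX5622 replicate 1 and G793A PLX5622 replicate 2), or 4 with high Npas4 (WT PLX3397 replicate 1, G793A PLX3397 replicates 2 and 4 and G793A PLX5622 replicate 2), left the number of these genes passing the test as it was in all 13 comparisons.

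Per length, Mef2c was far the most abundant of the 9 in WT control brain, at 84.6 ± 12 CPM per kb of its longest coding transcript (SD, n = 3, as for the values that follow). Sall1 at 4.64 ± 0.14 and Maf at 4.58 ± 0.28 CPM per kb came next and differed by less than their spread. Cebpa followed at 2.71 ± 0.26 CPM per kb. Irf5 at 1.35 ± 0.12, Spi1 at 1.32 ± 0.24 and Irf8 at 1.30 ± 0.24 CPM per kb could not be ordered beyond their spread. Ikzf1 was at 0.761 ± 0.147 and Runx1, the lowest, at 0.197 ± 0.017 CPM per kb. The scarce genes rest on few reads: across all 9 genes and 23 libraries the smallest estimated count was 12, for Spi1 and Runx1 in WT PLX5622.

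**Figure D1:**
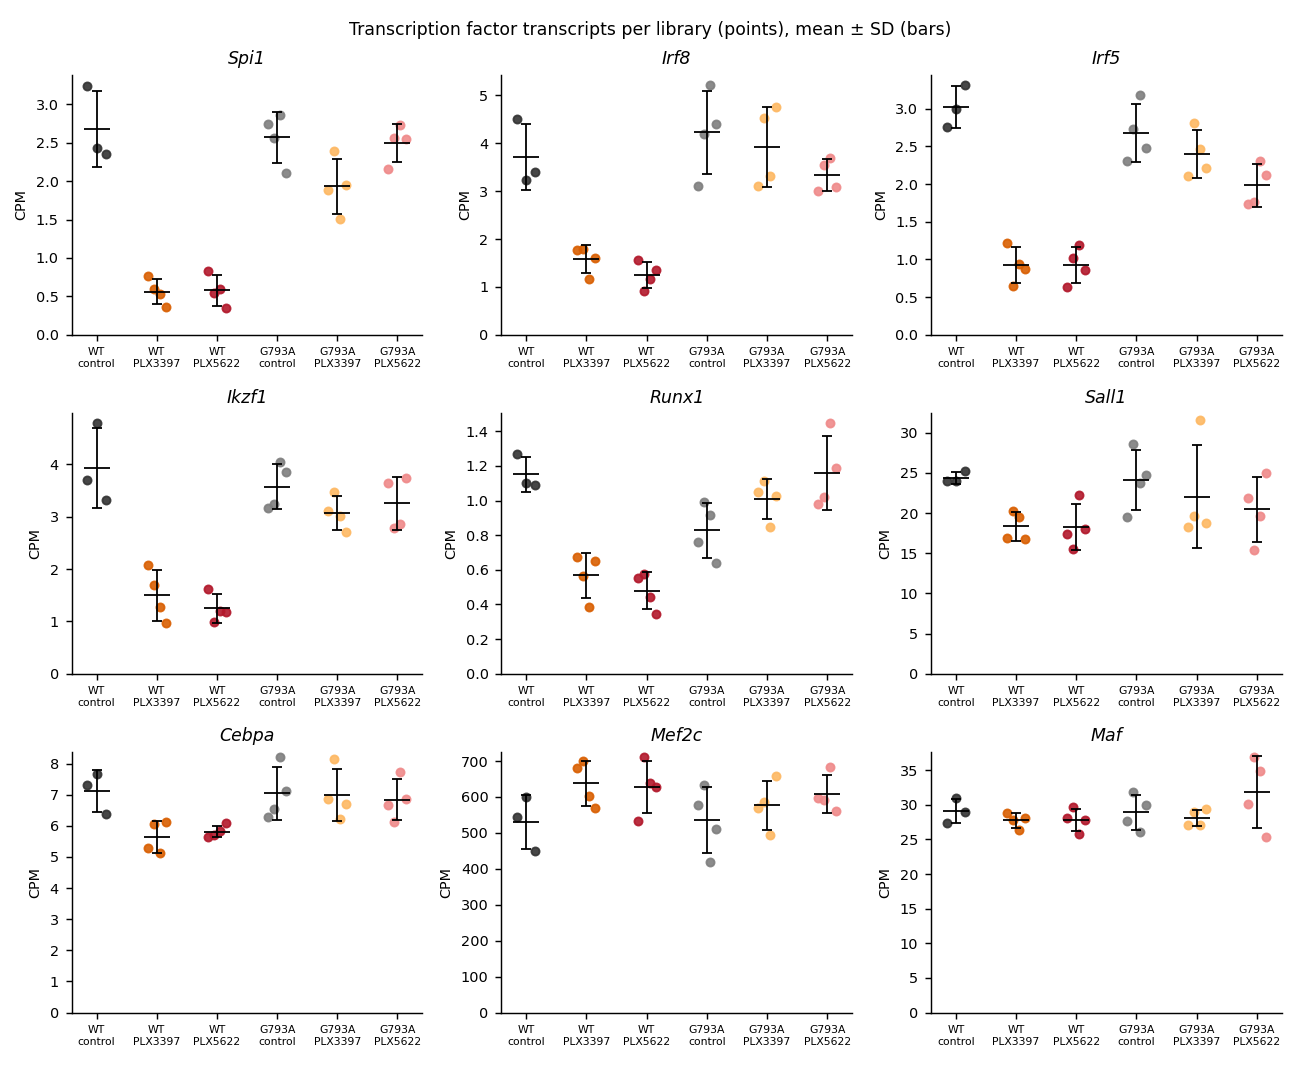
Level of each of the 9 transcription factor transcripts in every library, in CPM on a linear axis from 0, by genotype and chow; points are libraries and bars the mean ± SD (n = 3 for WT control, 4 for each other group). Spi1, Irf8, Irf5, Ikzf1 and Runx1 are lowest in both WT inhibitor groups, where no library reaches a WT control, Sall1 and Cebpa are shifted down slightly in those groups, and Mef2c and Maf overlap WT controls in all groups.

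In WT brain, 5 of the 9 transcripts were lower with PLX3397 and again with PLX5622: Spi1, Irf8, Runx1, Irf5 and Ikzf1. Spi1 kept about 21% to 22% of its control level and Runx1 about 42% to 49%. Sall1, Cebpa, Mef2c and Maf did not pass the test with either compound. Of all 16209 genes tested, 1.49% were called lower and 0.037% higher with PLX3397, and 1.59% were called lower and 0.074% higher with PLX5622. A gene was called when its p from edgeR's quasi-likelihood test, adjusted by Benjamini-Hochberg over every gene tested, was under 0.05. The 2 comparisons share their 3 control libraries, so they are given side by side and not as support for each other.

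Spi1 was at 3.24, 2.44 and 2.35 CPM in the WT controls. It was at 0.764, 0.590, 0.525 and 0.368 CPM with PLX3397 and at 0.826, 0.544, 0.598 and 0.344 CPM with PLX5622. All 8 inhibitor libraries lay below all 3 controls, and the 2 inhibitor groups overlapped. The log2 fold change ± SE was -2.25 ± 0.23 with PLX3397 (adjusted p = 9.70e-07) and -2.20 ± 0.23 with PLX5622 (adjusted p = 6.25e-07), the largest of the 9 with each compound.

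Irf8, the partner of PU.1, was at 4.51, 3.24 and 3.39 CPM in WT controls. With PLX3397 the libraries stood at 1.77, 1.80, 1.16 and 1.61 CPM, and with PLX5622 at 1.57, 0.919, 1.16 and 1.35 CPM. Neither inhibitor group overlapped the controls. The log2 fold changes were -1.23 ± 0.20 (adjusted p = 0.000487) and -1.56 ± 0.21 (adjusted p = 1.99e-05).

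Irf5, the innate signalling factor, was at 2.76, 3.00 and 3.32 CPM in the controls. It stood at 1.22, 0.644, 0.940 and 0.877 CPM with PLX3397 and at 0.633, 1.02, 1.2 and 0.860 CPM with PLX5622. Here too the inhibitor libraries were all below the controls and covered one another's range. Its log2 fold changes were nearly equal, -1.72 ± 0.20 (adjusted p = 4.35e-06) and -1.71 ± 0.20 (adjusted p = 3.27e-06).

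Ikzf1, which encodes Ikaros, was at 3.69, 4.78 and 3.32 CPM in WT controls, at 2.08, 1.69, 1.27 and 0.962 CPM with PLX3397 and at 1.62, 0.987, 1.2 and 1.18 CPM with PLX5622. No inhibitor library reached the lowest control. The log2 fold changes were -1.39 ± 0.20 (adjusted p = 0.000109) and -1.64 ± 0.21 (adjusted p = 9.06e-06).

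Runx1, the core-binding factor of early blood development, was the scarcest gene and moved least among the 5. Its controls were at 1.27, 1.10 and 1.09 CPM, the PLX3397 libraries at 0.672, 0.564, 0.387 and 0.651 CPM and the PLX5622 libraries at 0.551, 0.579, 0.441 and 0.344 CPM. The groups again did not overlap the controls. Its log2 fold change was -1.02 ± 0.23 with PLX3397 (adjusted p = 0.0167) and -1.27 ± 0.24 with PLX5622 (adjusted p = 0.0019). The PLX3397 call was lost without WT control replicate 1 (adjusted p = 0.107), without WT control replicate 3 (0.0509) or without WT PLX3397 replicate 3 (0.0783).

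**Figure D2:**
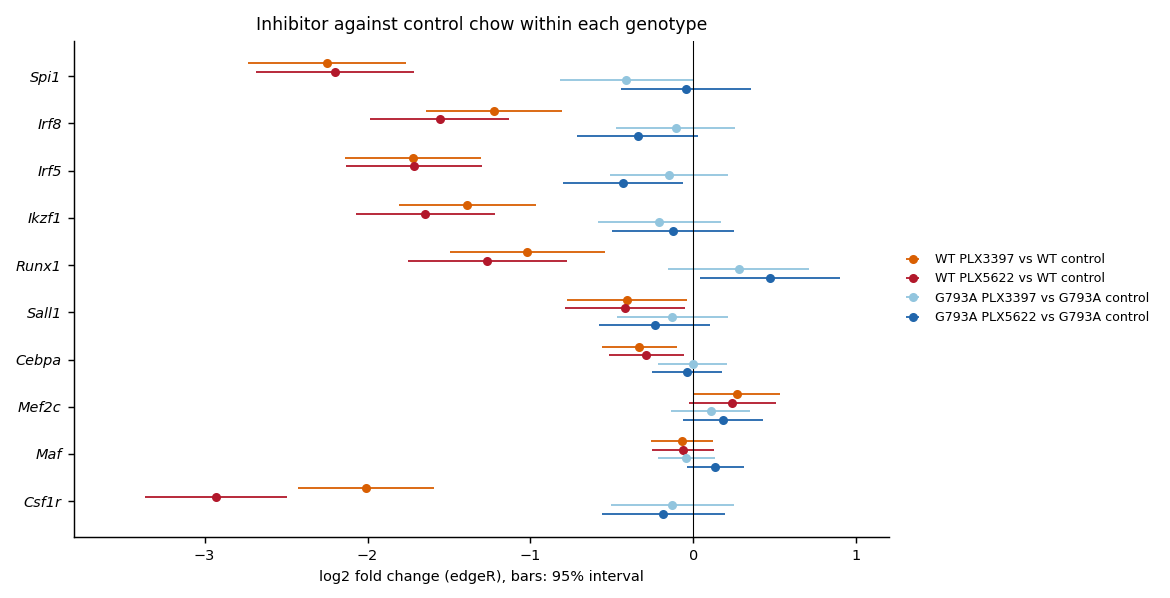
Log2 fold change of each gene, with its 95% interval, for each inhibitor against control chow within WT and within G793A brains; Csf1r is added for scale. In WT brains the intervals of Spi1, Irf8, Irf5, Ikzf1 and Runx1 all end below -0.54, while those of Sall1 and Cebpa lie between -0.79 and -0.04. In G793A brains no point lies below -0.43.

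Sall1 and Cebpa, the other 2 factors taken as myeloid, lay below WT controls by smaller steps and did not pass the adjusted test. Their unadjusted p was under 0.05 with each compound, as for 8.21% of all genes with PLX3397 and 8.43% with PLX5622, and whether they fell less than the other 5 was not tested. The mean log2 level of the 12 microglial genes changed by -2.12 with PLX3397 and by -2.88 with PLX5622. The label myeloid for Sall1 and Cebpa was not drawn from a measure of which cells held their transcripts. Sall1 was at 24.0, 24.0 and 25.3 CPM in WT controls, at 16.9, 20.3, 19.5 and 16.8 CPM with PLX3397 and at 17.4, 15.5, 22.2 and 18 CPM with PLX5622. Every inhibitor library was below every control, but the means were still 75.3% and 74.8% of the control mean. The log2 fold changes were -0.41 ± 0.18 (95% interval -0.78 to -0.04, adjusted p = 0.523) and -0.42 ± 0.18 (-0.79 to -0.05, adjusted p = 0.489). A fit of the compared groups alone called Sall1 lower with PLX3397 (adjusted p = 0.0223).

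Cebpa, a basic leucine zipper factor of myeloid commitment, was at 7.30, 7.66 and 6.36 CPM in WT controls. It was at 5.28, 6.06, 5.11 and 6.11 CPM with PLX3397 and at 5.65, 5.72, 5.82 and 6.08 CPM with PLX5622. These libraries too were all below the controls, with means at 79.4% and 81.8% of the control mean. The log2 fold changes were -0.33 ± 0.11 (95% interval -0.56 to -0.10, adjusted p = 0.248) and -0.29 ± 0.11 (-0.52 to -0.06, adjusted p = 0.392). Without a test passed, the separation of groups is a description: with PLX3397, 6.12% of all genes tested, and with PLX5622 5.26%, had every library below every control, as did 7 of these 9 genes with each compound.

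Mef2c and Maf, the factors shared with neurons, overlapped the controls in both inhibitor groups. Mef2c was at 543, 599 and 451 CPM in WT controls, 679, 701, 603 and 569 CPM with PLX3397 and 533, 709.8, 638 and 628 CPM with PLX5622. Its log2 fold changes were 0.27 ± 0.13 (95% interval 0.00 to 0.53, adjusted p = 0.606) and 0.24 ± 0.13 (-0.02 to 0.51, adjusted p = 0.672). The unadjusted p of Mef2c in edgeR was 0.0495 with PLX3397, in the upward direction, and 0.0731 with PLX5622. With PLX3397, 8.21% of all genes had an unadjusted p under 0.05. Maf was at 27.5, 31.0 and 29.0 CPM in WT controls and between 25.8 and 29.7 CPM in the 8 inhibitor libraries. Its log2 fold changes were -0.07 ± 0.09 (-0.26 to 0.12, adjusted p = 0.915) and -0.06 ± 0.09 (-0.25 to 0.13, adjusted p = 0.949). Of 4 pan-neuronal, 6 excitatory and 7 inhibitory marker genes, edgeR, DESeq2, limma-voom and limma on the variance-stabilised values called 0 with either compound, and 1 gene had an unadjusted p under 0.05 with each.

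To set each factor against the loss of microglial transcripts, its log2 CPM was taken relative to the mean log2 CPM of the 12 microglial genes in the same library. That mean differed from WT controls by -2.12 on the log2 scale with PLX3397 and by -2.88 with PLX5622. A factor whose transcripts fell in step with that mean would keep its ratio. The 12 genes themselves had log2 fold changes from -2.59 to -1.42 with PLX3397 and from -3.60 to -1.68 with PLX5622. A gene at the upper end of these ranges would gain in ratio too. The test compared libraries and did not take in that spread between genes. The ratios were compared by a two-sided exact permutation test, with p-values adjusted over 18 such tests. With 4 libraries against 3, no p can be below 0.0286. The 18 tests include those of Sall1, Cebpa, Mef2c and Maf, all at that smallest p. Counting them can lower the adjusted p of the other genes.

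Spi1 was the only one of the 9 whose log2 ratio did not move up with PLX3397: it was -3.24 ± 0.16 in WT controls (SD, n = 3) and -3.38 ± 0.19 (n = 4) with the compound, a difference of -0.14 (exact permutation p = 0.343). With 0.5 CPM in place of 0.01 CPM added before taking log2, that difference turned to 0.41 (adjusted exact permutation p = 0.0321). With PLX5622 the ratio was -2.60 ± 0.65, a difference of 0.64 (exact permutation p = 0.171), which was 1.09 with 0.5 CPM added (adjusted exact permutation p = 0.0321). Irf5 moved by 0.38 (exact permutation p = 0.286) and 1.15 (p = 0.0857), so neither gene differed beyond the spread in this test. For Spi1 and Irf5 the libraries of control and inhibitor groups overlapped in both comparisons.

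Ikzf1, Irf8 and Runx1 had higher ratios than in WT controls. The adjusted p was under 0.05 for Ikzf1 with both compounds and for Irf8 and Runx1 with PLX5622. That rests on the adjustment also counting Sall1, Cebpa, Mef2c and Maf, whose ratios had to rise. These passes are therefore a description. The log2 ratio of Ikzf1 was 0.69 higher with PLX3397 and 1.22 higher with PLX5622 (adjusted exact permutation p = 0.0429 for each). Irf8 was 0.89 higher with PLX3397 (adjusted exact permutation p = 0.0735) and 1.31 higher with PLX5622 (0.0429). Runx1 was 1.08 higher with PLX3397 (adjusted exact permutation p = 0.0735) and 1.60 higher with PLX5622 (0.0429). For these 3 genes, inhibitor libraries lay above all controls with both compounds. The share of all genes with ratios separated in this way was not taken. A gene that kept its own level would rise as well, so the separation is not particular to these 3.

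The ratio subtracts the microglial mean, so a gene that held its own level had to gain about what that mean lost. For the 4 genes that were not called, its rise is therefore not read as a test result. Sall1 went from a log2 ratio of -0.04 ± 0.14 to 1.67 ± 0.27 with PLX3397 and 2.41 ± 0.55 with PLX5622. Cebpa went from -1.82 ± 0.11 to -0.03 ± 0.36 and 0.77 ± 0.63. Mef2c rose by 2.39 and 3.12, and Maf by 2.05 and 2.82. Which cells held the remaining transcripts was not measured.

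**Figure D3:**
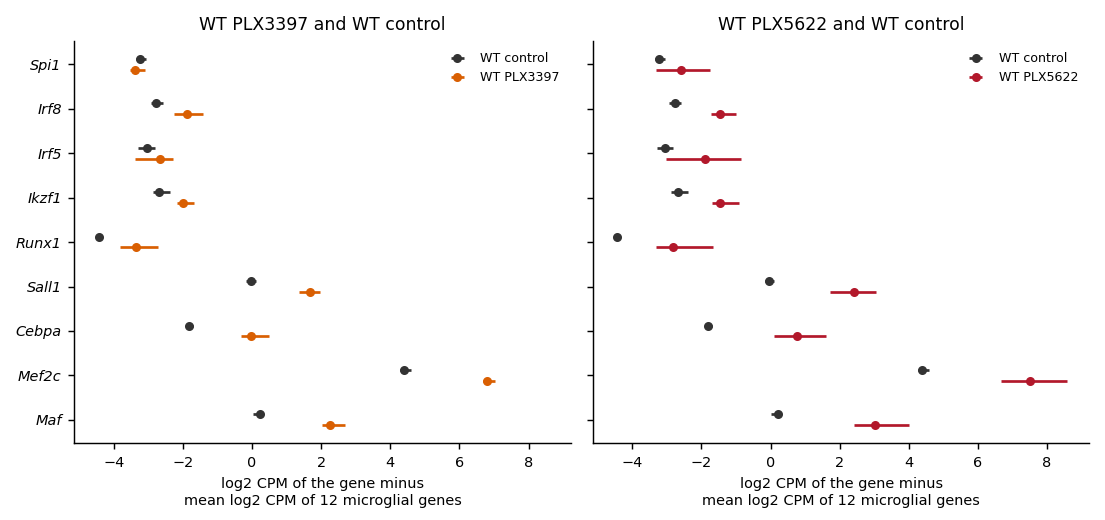
Log2 CPM of each gene minus the mean log2 CPM of 12 microglial genes in the same library, for WT controls (n = 3) and each WT inhibitor group (n = 4); points are means and bars run from the lowest to the highest library. The Spi1 and Irf5 bars overlap between groups, whereas Sall1, Cebpa, Mef2c and Maf shift right by 1.71 to 3.12 log2 units.

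Other cell markers also moved between these groups. The summed level of 8 border macrophage genes was 26.1 to 30.03 CPM in WT controls, 5.23 to 6.93 CPM with PLX3397 and 5.34 to 6.66 CPM with PLX5622. Of 8 listed monocyte and granulocyte genes, 7 were tested. Their sum was 0.966 to 1.63 CPM in WT controls, 2.52 to 10.4 CPM with PLX3397 and 1.2 to 9.28 CPM with PLX5622. In edgeR 0 of the 7 were called with either compound. Their median log2 fold changes were 0.98 and 1.42, and 1 of 7 and 2 of 7 were negative. Of these 7 genes, 3 and 4 had an unadjusted p under 0.05, against 8.21% and 8.43% of all genes, and DESeq2 called 2 with each compound and both limma fits 0. Of 8 listed lymphocyte genes, 4 were tested and summed to at most 2.43 CPM in any library. None of these 4 passed in edgeR or the other 3 fits, with 0 at an unadjusted p under 0.05. At the extremes of the monocyte and granulocyte list, S100a8, a neutrophil calcium-binding protein gene, had log2 fold changes of 3.96 ± 1.25 and 3.77 ± 1.26, S100a9, its partner, 4.39 ± 1.19 and 3.72 ± 1.22, and Ccr2, the monocyte chemokine receptor gene, -1.18 ± 0.46 and -1.13 ± 0.46. With PLX3397 the 5 red blood cell genes summed to 37.2 to 100.4 CPM against 173 to 306 CPM in WT controls and were all negative, and edgeR called 1 of them (Hba-a2, -2.18 ± 0.53, a globin gene with a near-identical copy), limma-voom 3 and DESeq2 all 5. With PLX5622 their sum was 98.8 to 298 CPM and 0 were called by edgeR or the other 3 fits, with 0 at an unadjusted p under 0.05. Oligodendrocyte precursor genes summed to 86.5 to 95.2 CPM with PLX3397 against 103 to 117 CPM in WT controls. Of the 4, edgeR called 1 (Matn4, -0.51 ± 0.13) and DESeq2 2. With PLX5622 they summed to 109 to 113 CPM. The sum of 3 pituitary genes was at most 0.322 CPM in WT controls, up to 4.33 CPM with PLX3397 and up to 97.03 CPM with PLX5622, and edgeR and the other 3 fits called 0 of them with either compound; 0 and 3 had an unadjusted p under 0.05. The part of these cells in the levels of the 9 factors was not tested.

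Relatives of the 9 factors from the same protein families were not called. Of 32 listed relatives 28 were tested, and edgeR, DESeq2 and both limma fits called 0 with either compound. At an unadjusted p under 0.05 there were 8 of 28 and 5 of 28, larger shares than the 8.21% and 8.43% of all genes. Their median log2 fold change was 0.03 with PLX3397 and -0.02 with PLX5622, against 0.01 over all genes in each. They ran from -1.03 to 1.79 with PLX3397 and from -1.26 to 0.68 with PLX5622. The lowest were Sall4 with PLX3397 (-1.03 ± 0.63) and Irf4 with PLX5622 (-1.26 ± 0.56), and the highest Maff (1.79 ± 0.67) and Cebpd (0.68 ± 0.24). The interferon factors Irf7 (-0.72 ± 0.26 and -0.54 ± 0.26) and Irf9 (-0.38 ± 0.14 with each) lay below all controls with both compounds. So did 6.12% of all genes with PLX3397 and 5.26% with PLX5622, and these 2 relatives were picked from the 28. Irf3 was at -0.10 ± 0.11 and -0.09 ± 0.11 and Mef2a at 0.07 ± 0.08 and 0.04 ± 0.08. No test compared the relatives with the 9 factors. Of 12 other macrophage transcription factors tested, 3 were called lower with each compound, against 1.49% and 1.59% of all genes. These were the ETS factors Fli1 and Elf4 and the basic helix-loop-helix factor Lyl1. Lyl1 had log2 fold changes of -1.90 ± 0.27 with PLX3397 and -1.14 ± 0.26 with PLX5622, Elf4 -1.0 ± 0.23 and -1.16 ± 0.24, and Fli1 -0.47 ± 0.12 and -0.62 ± 0.12.

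Of 12 genes known as targets of PU.1 and IRF8, 11 were called lower with each compound, against 1.49% and 1.59% of all genes. Their median log2 fold changes were -1.62 and -2.15. The fall was not particular to these targets. All 12 microglial genes were called lower with each compound, with medians of -2.14 and -2.90. Of 8 border macrophage genes, 7 were called lower with PLX3397 and 6 with PLX5622. Whether the targets followed the level of Spi1 or Irf8 was not tested. The integrin gene Itgam (CD11b) had log2 fold changes of -2.36 ± 0.21 and -3.22 ± 0.22. The NADPH oxidase gene Cybb fell as well, at -1.43 ± 0.30 and -1.24 ± 0.30. Trem2, a lipid-sensing microglial receptor, was at -1.61 ± 0.19 and -2.32 ± 0.20. Of the 4 genes listed for TGF-beta input to Sall1, 3 fell with each compound, the ligand gene Tgfb1 (-1.10 ± 0.15 and -1.01 ± 0.15) and the receptor genes Tgfbr1 (-0.96 ± 0.12 and -1.22 ± 0.12) and Tgfbr2 (-0.44 ± 0.08 with each). Smad3, which carries the signal inside the cell, was at 0.01 ± 0.11 and -0.17 ± 0.11. These lists were drawn up with earlier results of the data known, and their counts are a description.

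PLX5622 and PLX3397 groups of WT mice were also set against each other, although the chow doses differed. In edgeR 0 of the 9 factors passed and 0 had an unadjusted p under 0.05, against 0% of all genes called in either direction and 4.09% with such a p; DESeq2, limma-voom and limma on the deposited variance-stabilised values also called 0. The log2 differences of PLX5622 from PLX3397 were 0.05 for Spi1 (95% interval -0.48 to 0.58), -0.33 for Irf8 (-0.76 to 0.10), -0.25 for Runx1 (-0.74 to 0.24), 0.01 for Irf5 (-0.42 to 0.44) and -0.26 for Ikzf1 (-0.69 to 0.17). For Sall1 the difference was -0.01 (-0.36 to 0.34), and for Cebpa 0.04 (-0.17 to 0.26). The intervals span differences in either direction. Csf1r itself had a log2 difference of -0.92, with no overlap between groups and an adjusted p of 0.427.

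In G793A brains no factor passed the adjusted test against G793A controls, which does not show that levels were unchanged. Of the 7 factors taken as myeloid, 6 had negative log2 fold changes with each compound, and Runx1 was positive. Spi1 was at 75.2% of controls with PLX3397. With PLX5622, Irf5 was at 74.2% and Runx1 at 139%. All 12 microglial genes were negative with each compound (medians -0.24 and -0.32), as were all 8 border macrophage genes (-0.51 and -0.26). No gene of either list was called, and 49% and 50.1% of all genes were negative. Against G793A controls, edgeR called 0 of 9 with PLX3397 and 0 of 9 with PLX5622, where it called 0.00617% of all genes lower and 0% higher with the first and 0% in either direction with the second. G793A control replicate 2 set these shares: without it 7 genes were called lower and 16 higher with PLX3397, and 438 lower and 542 higher with PLX5622, still with 0 of the 9 factors. DESeq2 with all libraries called 11 genes lower and 7 higher with PLX3397 and 97 lower and 118 higher with PLX5622. At an unadjusted p under 0.05 there was 1 gene with PLX3397 (Spi1, -0.41 ± 0.20) against 11.7% of all genes. With PLX5622 there were 2 (Runx1, 0.47 ± 0.21, and Irf5, -0.43 ± 0.18) against 16.3%. All 9 genes overlapped between inhibitor and control groups with both compounds, a description given without the share of all genes. DESeq2, limma-voom and limma on the variance-stabilised values also called none, where a missing adjusted p counted as not called.

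Spi1 was at 2.75, 2.56, 2.86 and 2.11 CPM in G793A controls, 1.89, 2.39, 1.50 and 1.94 CPM with PLX3397 and 2.15, 2.56, 2.72 and 2.55 CPM with PLX5622. Irf8 was at 3.12, 4.19, 5.22 and 4.40 CPM in G793A controls, 3.10, 4.52, 3.32 and 4.76 CPM with PLX3397 and 3.01, 3.55, 3.69 and 3.09 CPM with PLX5622. These ranges overlapped WT controls and lay above every WT library on the same compound. Irf5 was at 2.31, 2.73, 3.18 and 2.47 CPM in G793A controls, 2.10, 2.81, 2.47 and 2.21 CPM with PLX3397 and 1.74, 1.76, 2.31 and 2.12 CPM with PLX5622. The last of these groups lay wholly below WT controls, at 65.5% of their mean, as did 3.86% of all genes tested.

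Ikzf1 in G793A brains was at 3.16, 3.24, 4.04 and 3.85 CPM on control chow, 3.10, 3.48, 3.00 and 2.71 CPM with PLX3397 and 3.65, 2.78, 2.86 and 3.74 CPM with PLX5622. Runx1 was at 0.760, 0.992, 0.919 and 0.641 CPM on control chow, 1.05, 1.11, 0.848 and 1.03 CPM with PLX3397 and 0.979, 1.02, 1.45 and 1.19 CPM with PLX5622. Among G793A groups Runx1 was thus lowest on control chow, where all 4 libraries lay below all WT controls, as 2.91% of all genes tested did. Sall1 ran from 15.4 to 31.6 CPM, Cebpa from 6.11 to 8.21 CPM, Mef2c from 419 to 684 CPM and Maf from 25.4 to 36.9 CPM over the 12 G793A libraries, ranges that include WT control values for each gene.

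Set against WT controls, no G793A group had a called factor in edgeR, DESeq2, limma-voom or limma on the variance-stabilised values. The share of all genes called was 0% in both directions for G793A controls and for G793A PLX5622, and 0.00617% lower with 0% higher for G793A PLX3397. Without G793A control replicate 2, 184 genes were called lower and 191 higher in G793A than in WT controls, again with 0 of the 9 factors. DESeq2 called 16 genes lower and 10 higher for G793A PLX3397 and 5 lower and 3 higher for G793A PLX5622. Unadjusted p was under 0.05 for 1 factor in each: Runx1 in G793A controls (-0.47 ± 0.22, adjusted p = 0.439), Spi1 with PLX3397 (-0.47 ± 0.21, adjusted p = 0.649) and Irf5 with PLX5622 (-0.61 ± 0.19, adjusted p = 0.583). The shares of all genes with such a p were 11.1%, 7.24% and 6.76%. Between PLX5622 and PLX3397 in G793A brains edgeR and the other 3 fits called 0 of 9, against 0% of genes lower and 0.00617% higher, and 1 factor, Maf (0.18 ± 0.08), had an unadjusted p under 0.05, as did 6.85% of all genes.

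On the same compound, G793A brains held more of the factors that fell in WT brains. With PLX3397, edgeR called 4 of 9 higher in G793A than in WT, against 0.932% of all genes: Spi1 by 1.78 ± 0.23, Irf8 by 1.30 ± 0.19, Irf5 by 1.39 ± 0.19 and Ikzf1 by 1.04 ± 0.19 on the log2 scale. Runx1 was 0.83 ± 0.22 higher and did not pass (adjusted p = 0.089). With PLX5622, 5 of 9 were called higher, against 1.09% of all genes: Spi1 by 2.10 ± 0.23, Irf8 by 1.40 ± 0.20, Runx1 by 1.27 ± 0.22, Irf5 by 1.10 ± 0.20 and Ikzf1 by 1.38 ± 0.20. The Runx1 call was lost in limma on the variance-stabilised values (0.13, adjusted p = 0.747). Cebpa, 0.31 ± 0.10 higher with PLX3397 (adjusted p = 0.336) and 0.23 ± 0.10 higher with PLX5622 (adjusted p = 0.828), did not pass, although its groups did not overlap. In all, 6 of the 9 lay wholly above the WT libraries with each compound, against 3.78% of all genes with PLX3397 and 2.49% with PLX5622. Sall1, Mef2c and Maf overlapped between genotypes on both compounds.

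The interaction term asked whether an inhibitor's log2 fold change differed between genotypes, each against its own controls. With PLX3397, edgeR called 3 of 9 as falling less in G793A than in WT brains, against 0.549% of all genes called in that direction. These were Spi1 (1.84 ± 0.31, adjusted p = 0.00208), Irf5 (1.57 ± 0.27, adjusted p = 0.00236) and Ikzf1 (1.18 ± 0.27, adjusted p = 0.0468). Runx1 (1.30 ± 0.31, adjusted p = 0.0626) and Irf8 (1.12 ± 0.27, adjusted p = 0.0639) had differences of like size and did not pass. The Ikzf1 call was lost when any of 11 single libraries was left out (adjusted p from 0.0508 to 0.208) and with replicate number as a block (0.0929).

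With PLX5622 the interaction was called for 5 of 9, against 0.802% of all genes. Spi1 had 2.15 ± 0.31 (adjusted p = 0.000119), Runx1 1.74 ± 0.32 (0.00254), Ikzf1 1.52 ± 0.28 (0.0026), Irf5 1.28 ± 0.27 (0.0139) and Irf8 1.22 ± 0.27 (0.0254). For Runx1 the G793A part of this difference was positive (0.47 ± 0.21), and its G793A controls lay wholly below WT controls. The Irf8 call was lost without WT control replicate 1 (adjusted p = 0.141) and without any of 5 other single libraries, namely G793A control replicate 1, WT PLX5622 replicates 2 and 3 and G793A PLX5622 replicates 2 and 3 (0.0617 to 0.0803), and with replicate number as a block (0.0502). The Irf5 call was lost without WT control replicate 3 (0.0565). For Sall1 the interaction was 0.28 ± 0.24 with PLX3397 and 0.18 ± 0.24 with PLX5622, for Cebpa 0.33 ± 0.15 and 0.25 ± 0.15, for Mef2c -0.16 ± 0.17 and -0.06 ± 0.17, and for Maf 0.03 ± 0.12 and 0.20 ± 0.12, none of which passed.

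Across all 23 libraries the factors differed in how closely they followed the 12 microglial genes. Pearson's r with their mean log2 level was 0.96 for Ikzf1, 0.95 for Spi1, 0.95 for Irf8, 0.90 for Irf5, 0.81 for Runx1, 0.74 for Cebpa, 0.58 for Sall1, 0.22 for Maf and -0.49 for Mef2c. These are descriptions over libraries that share the same 6 groups. The 8 WT inhibitor libraries lie apart from all others on the microglial measure.

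The genes most like each factor, by r of log2(CPM + 1) over the 23 libraries among 13954 genes with a mean of 1 CPM or more, differed in kind. For Ikzf1 they were the microglial genes Olfml3 (0.97), Tmem119 (0.97) and Gpr34 (0.97), and for Irf8 they included Trem2 and C1qb (0.95 each). For Spi1 they were Hcls1, Fcgr1 and Alox5ap (0.96 each), for Irf5 Slco2b1 (0.95), Cd37 (0.95) and Stab1 (0.94), and for Runx1 Tgfbr1 (0.89), Plek (0.86) and Il6ra (0.86). Likeness was lower for Cebpa, with Epb41l2 (0.86), Elf4 (0.84) and Cst3 (0.83), and for Sall1, with Gcnt1 (0.81), Samsn1 (0.77) and P2rx7 (0.75). Mef2c was most like Tshz3 (0.93) and the potassium channel genes Kcnh7 (0.92) and Kcnj3 (0.92), and Maf most like Zfp91 (0.80), Cir1 (0.79) and Glrb (0.75), which encodes a glycine receptor subunit.

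**Figure D4:**
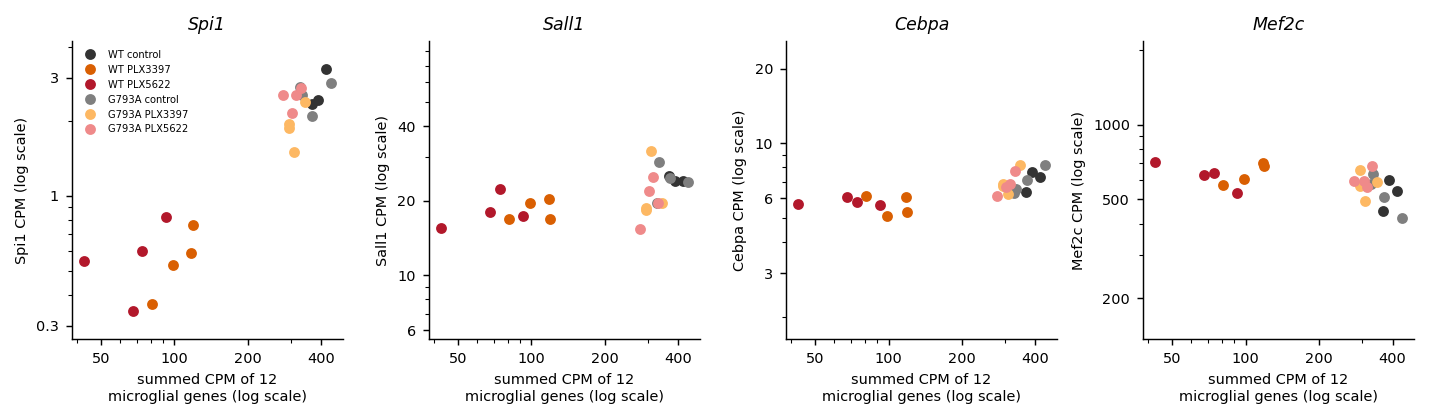
CPM of Spi1, Sall1, Cebpa and Mef2c against the summed CPM of 12 microglial genes in each of 23 libraries, both axes on a log scale and each vertical axis spanning the same number of log units. The 8 WT inhibitor libraries lie between 42.6 and 119 CPM on the horizontal axis; Spi1 drops with them, Sall1 and Cebpa drop slightly, and Mef2c does not drop.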

How the data were processed

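Per the labels' protocols, brain RNA was extracted with RNeasy kits and made into oligo-dT selected, stranded mRNA libraries. Tools in the submitters' processing notes are kallisto 0.46.1, FastQC 0.11.9 and DESeq2 1.26.0, with build GRCm39; no source at hand says how transcripts were summed to genes. The table deposited by the authors holds estimated counts per gene symbol, 45.3% of them not whole. A deposited log2 table of variance-stabilised values (15577 entries) served only as an alternative.

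Counts were rounded, and 1 entry with no name (0.00828% to 0.0151% of a library's counts) was left out. Scaling was by TMM and filterByExpr (minimum count 10, minimum total 15) left 16209 genes. One robust quasi-likelihood model in edgeR 4.0.16 (R 4.3.3) was fitted to the 23 libraries by group. Its tests were two-sided, with Benjamini-Hochberg adjustment over all genes and a threshold of 0.05. The SE is the log2 fold change divided by the root of F, and intervals cover 95%. The count test was checked on simulated data. CPM use TMM library sizes, and lengths per kb are of the longest protein-coding transcript in GENCODE vM21 (GRCm38), matched by symbol. For the ratio to 12 microglial genes, 0.01 CPM was added before taking log2. Libraries of a group differed beyond counting noise (chi-square per degree of freedom from 5.94 to 74.5), so each was counted once.

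All 9 factors are given in every comparison, with Csf1r, the 3 genes most like each factor, and up to 4 called genes from each other list. Further genes of the lists were named after their values were seen, and some genes are not reported here. The factors and lists were chosen with earlier results of these data known. Replicate numbers did not pair libraries: residuals of same-numbered libraries had a median correlation of 0.00553 (55 pairs), and others one of 0.0015 (165 pairs). Alternatives were DESeq2 1.42.0, limma-voom and limma on the log2 table (limma 3.58.1), RLE scaling, a low-count filter set at 1 CPM on average or none, a non-robust fit, the compared groups alone, a replicate block, removal of length and GC trends, and each library left out; 2 sets of left-out libraries were added after seeing the data.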

Additional observations from a re-analysis of the deposited data

Results flagged for a closer look

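In G793A brains on PLX3397, Sall1 of replicate 3 stood at 31.6 CPM while the other 3 libraries lay between 18.3 and 19.61 CPM. Its gap to the next library was 0.902 of the group's range. Chance marks about 1 in 20 groups in this way, and 1 of 45 groups of 4 libraries was marked here. Without that library the log2 difference of Sall1 between G793A and WT brains on PLX3397 was 0.04 in place of 0.27, and between G793A PLX3397 and WT control it was -0.37 in place of -0.14; no Sall1 call changed.

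The inhibitors' effects on 5 factors differed between genotypes by the interaction term in edgeR. With PLX3397 the effect was less negative in G793A than in WT brains by 1.84 log2 units for Spi1, 1.57 for Irf5 and 1.18 for Ikzf1. With PLX5622 it was less negative by 2.15 for Spi1, 1.52 for Ikzf1, 1.28 for Irf5 and 1.22 for Irf8. For Runx1 the difference was 1.74, with a positive log2 fold change in G793A brains (0.47 ± 0.21).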

How the results depend on the processing

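Of 117 log2 fold changes (9 factors in 13 comparisons), 103 stayed on the same side of the threshold under every alternative that gave them an adjusted p. None reversed, and a value within 1 SE of 0 was taken as having no direction. DESeq2 and the filter at 1 CPM gave some of the 117 no adjusted p, and these were counted as not called. The number of factors called with PLX3397 in WT brains was 5, and 4 to 5 over the alternatives. With PLX5622 it was 5, and 4 to 5. The filter at 1 CPM left Runx1 untested, so its count of 4 with each compound is not a lost call. The interaction count with PLX3397, 3 of 9, was 5 in DESeq2, 4 in limma-voom and 0 in limma on the variance-stabilised values. It was 2 in the non-robust fit, with the replicate block and in the compared groups alone, and 2 to 4 with single libraries left out. The interaction count with PLX5622, 5 of 9, was 1 in limma on the variance-stabilised values. It was 4 with the filter at 1 CPM and with the replicate block, and 4 to 5 with single libraries left out. The variance-stabilising transformation by its construction compresses differences of low counts, and most of these factors lie at a few CPM. Whether that lowered the interaction counts was not tested. In the same limma fit 4 factors were still called in WT brains and 4 between genotypes, with each compound. There the WT fold change of Runx1 became -0.11 with PLX3397 (adjusted p = 0.741) and -0.13 with PLX5622 (0.604). The replicate block changed 2 calls, Ikzf1 in the PLX3397 interaction (1.16, adjusted p = 0.0929) and Irf8 in the PLX5622 interaction (1.24, 0.0502). In the compared groups alone, Runx1 in WT PLX3397 (adjusted p = 0.101), the Ikzf1 interaction with PLX3397 (0.0872) and Ikzf1 between genotypes on PLX3397 (0.0528) were not called. Runx1 and Irf8 passed the PLX3397 interaction in DESeq2 (adjusted p = 0.0448 and 0.0125), and Runx1 passed it in limma-voom (0.0373). Ikzf1 did not pass it in the non-robust edgeR fit (adjusted p = 0.0518). The log2 ratio of Spi1 to the microglial genes with PLX3397, -0.14, became 0.41 when 0.5 CPM was added before taking log2 (adjusted exact permutation p = 0.0321), a change that raises low values most; Irf8 (0.98) and Runx1 (1.36) with PLX3397 and Spi1 (1.09) with PLX5622 also passed then. Leaving out 1 library makes these ratio tests too small for an adjusted p under 0.05. The ratio differences then ran, with PLX3397, from 1.61 to 1.81 for Sall1, 1.61 to 1.89 for Cebpa, 0.59 to 0.85 for Ikzf1, 2.31 to 2.49 for Mef2c and 1.91 to 2.13 for Maf. With PLX5622 they ran from 1.15 to 1.40 for Irf8, 2.24 to 2.68 for Sall1, 1.22 to 1.77 for Runx1, 2.31 to 2.82 for Cebpa, 1.04 to 1.38 for Ikzf1, 2.77 to 3.41 for Mef2c and 2.50 to 3.02 for Maf.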
